A study of Mus musculus with 75 samples.

Results

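A set of 9 lysosomal proteases and their secreted inhibitor were followed in mouse lung after bleomycin. The set was chosen by gene symbol and holds 10 genes of the 55536 in the count table, namely the cathepsins Ctsb, Ctsc, Ctsd, Ctsh, Ctsk, Ctsl, Ctss and Ctsz, the asparaginyl endopeptidase legumain (Lgmn) and cystatin C (Cst3). All 10 passed the filter on low counts that left 16221 genes for testing, and no single mouse had fewer than 279 counts for any of them. The 75 libraries, 1 per mouse, were 10 CTRL mice, 10 BLEO-IPF mice on day 7 (D7), 12 each on days 14, 21, 28 and 35 (D14, D21, D28, D35) and 7 on day 42 (D42). All were male C57BL/6JRj mice, 12 to 14 weeks old when bleomycin sulphate, a DNA-damaging drug that injures the lung, was given once into the trachea. The sample labels and captions of the study call the CTRL mice saline-treated, whereas the treatment protocol and the study's methods call them untreated, and the values here cannot tell which holds. BLEO-IPF mice entered a group only if they had lost 5 to 17% of body weight on day 6, so each day describes mice selected for mild to moderate early weight loss. RNA came from the inferior lobe of lungs that had been rinsed with saline to collect lavage fluid, a step that can take free airspace cells with it.

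Cathepsins are made as inactive proforms, carry a mannose 6-phosphate tag that sends them to the lysosome, and become active there at acid pH, where they degrade ingested and worn-out protein. Most are cysteine proteases of the papain family, whereas cathepsin D is an aspartic protease, and legumain cuts after asparagine and helps to mature other cathepsins. Macrophages are rich in these enzymes, some of which are also secreted and can cut collagen and elastin outside the cell, and cystatin C is the main secreted inhibitor of the cysteine cathepsins in body fluids.

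Levels are given as CPM, read counts relative to a common library size, here scaled by the TMM method, and total counts ranged from 9240291 to 14665247 per library. A gene was called higher or lower when its edgeR quasi-likelihood F test had a Benjamini-Hochberg adjusted p under 0.05 over all genes tested. Each sample was 1 mouse, so the spread is between animals. In this whole-lobe RNA, more cells of a type and more RNA per cell cannot be told apart. Lung markers were at high level throughout, the summed level of 9 genes of alveolar type 2 (AT2) cells lying between 7211 and 33798 CPM. A pair of libraries stood apart. D28 mouse 10 had 1723 CPM summed over 8 skeletal muscle genes and 2519 CPM over 7 heart muscle genes, against group medians of 7.63 and 146. D14 mouse 8 had 634 CPM summed over 8 neutrophil genes, against at most 213 CPM in any other mouse of that day. Leaving out either mouse changed a call in only 2 tests of a member, both close to the threshold, and both are given with those members below.

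Promoter windows of RefSeq (GRCm38.p6), each of 300 bases from 250 before to 50 after a start site, were found for 8 of the 10 members, and for Lgmn at 2 start sites, giving 9 windows. They were searched on both strands for CACGTG, the core bound by the MiT family of transcription factors that drive lysosomal genes, and for CACGTGAC (GTCACGTG on the other strand), every match of which also holds the core. Of the 32851 windows in the table, 7.15% held the core and 2.25% the longer form. Among the members, Ctsd, Ctsl and Lgmn held the core, and Ctsd and Lgmn the longer form. The windows of Ctsd and of the downstream Lgmn start site are shown because they hold the longer form, and that of Ctss because this gene had the largest rise on day 14 and held neither. Capitals mark the matches, and each sequence reads 5′ to 3′ on the strand of its gene.
Ctsd, chr7:142387778-142388077, minus strand: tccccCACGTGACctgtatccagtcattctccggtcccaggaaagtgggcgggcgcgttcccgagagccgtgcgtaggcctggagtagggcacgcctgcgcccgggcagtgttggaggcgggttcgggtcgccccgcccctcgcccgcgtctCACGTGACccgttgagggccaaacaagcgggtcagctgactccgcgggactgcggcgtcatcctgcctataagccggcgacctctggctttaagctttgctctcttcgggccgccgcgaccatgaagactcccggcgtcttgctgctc
Lgmn, chr12:102439043-102439342, minus strand: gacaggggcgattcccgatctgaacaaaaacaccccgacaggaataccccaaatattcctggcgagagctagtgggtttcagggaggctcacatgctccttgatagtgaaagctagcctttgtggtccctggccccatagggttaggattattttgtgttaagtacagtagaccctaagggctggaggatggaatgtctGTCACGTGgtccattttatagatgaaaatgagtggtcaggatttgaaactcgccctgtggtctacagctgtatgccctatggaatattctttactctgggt
Ctss, chr3:95526536-95526835, plus strand: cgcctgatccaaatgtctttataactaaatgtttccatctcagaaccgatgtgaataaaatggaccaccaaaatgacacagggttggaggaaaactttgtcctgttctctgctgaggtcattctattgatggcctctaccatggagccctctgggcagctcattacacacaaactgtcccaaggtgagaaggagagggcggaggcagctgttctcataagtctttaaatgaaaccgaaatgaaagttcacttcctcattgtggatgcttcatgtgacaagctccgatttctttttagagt
The Ctsd matches began 245 and 98 bases before the start site, and the Lgmn match of the core began 49 bases before it. A match of letters is a description of these windows and not evidence of binding.

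Against CTRL, 8 of the 10 members were called higher on D7, 10 on D14, 10 on D21, 10 on D28, 9 on D35 and 10 on D42, and none was called lower on any day, nor at an unadjusted p under 0.05 or with DESeq2. Of all genes tested, 24.8% were called higher on D7, 32.4% on D14, 28.3% on D21, 24.1% on D28, 16.9% on D35 and 13.7% on D42, and the shares called lower were 21%, 29.9%, 25.8%, 19.2%, 13.1% and 11% in the same order. The median log2 fold change of the members was 1.08 on D7, 1.57 on D14, 1.28 on D21, 1.05 on D28, 0.86 on D35 and 0.87 on D42. The median over all genes tested stayed within 0.02 of 0 on each day, where TMM scaling tends to place it. The 6 comparisons share their 10 CTRL mice. Every mouse of the day lay above every CTRL mouse for 7 members on D7, 9 on D14, 9 on D21, 6 on D28, 8 on D35 and 8 on D42, while 7.39%, 9.46%, 6.84%, 2.1%, 2.43% and 4.22% of all genes did so. For 6 members, Ctsb, Ctsd, Ctsk, Ctss, Ctsz and Lgmn, the bleomycin mice and the CTRL mice did not overlap on any of the 6 days.

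**Figure D1:**
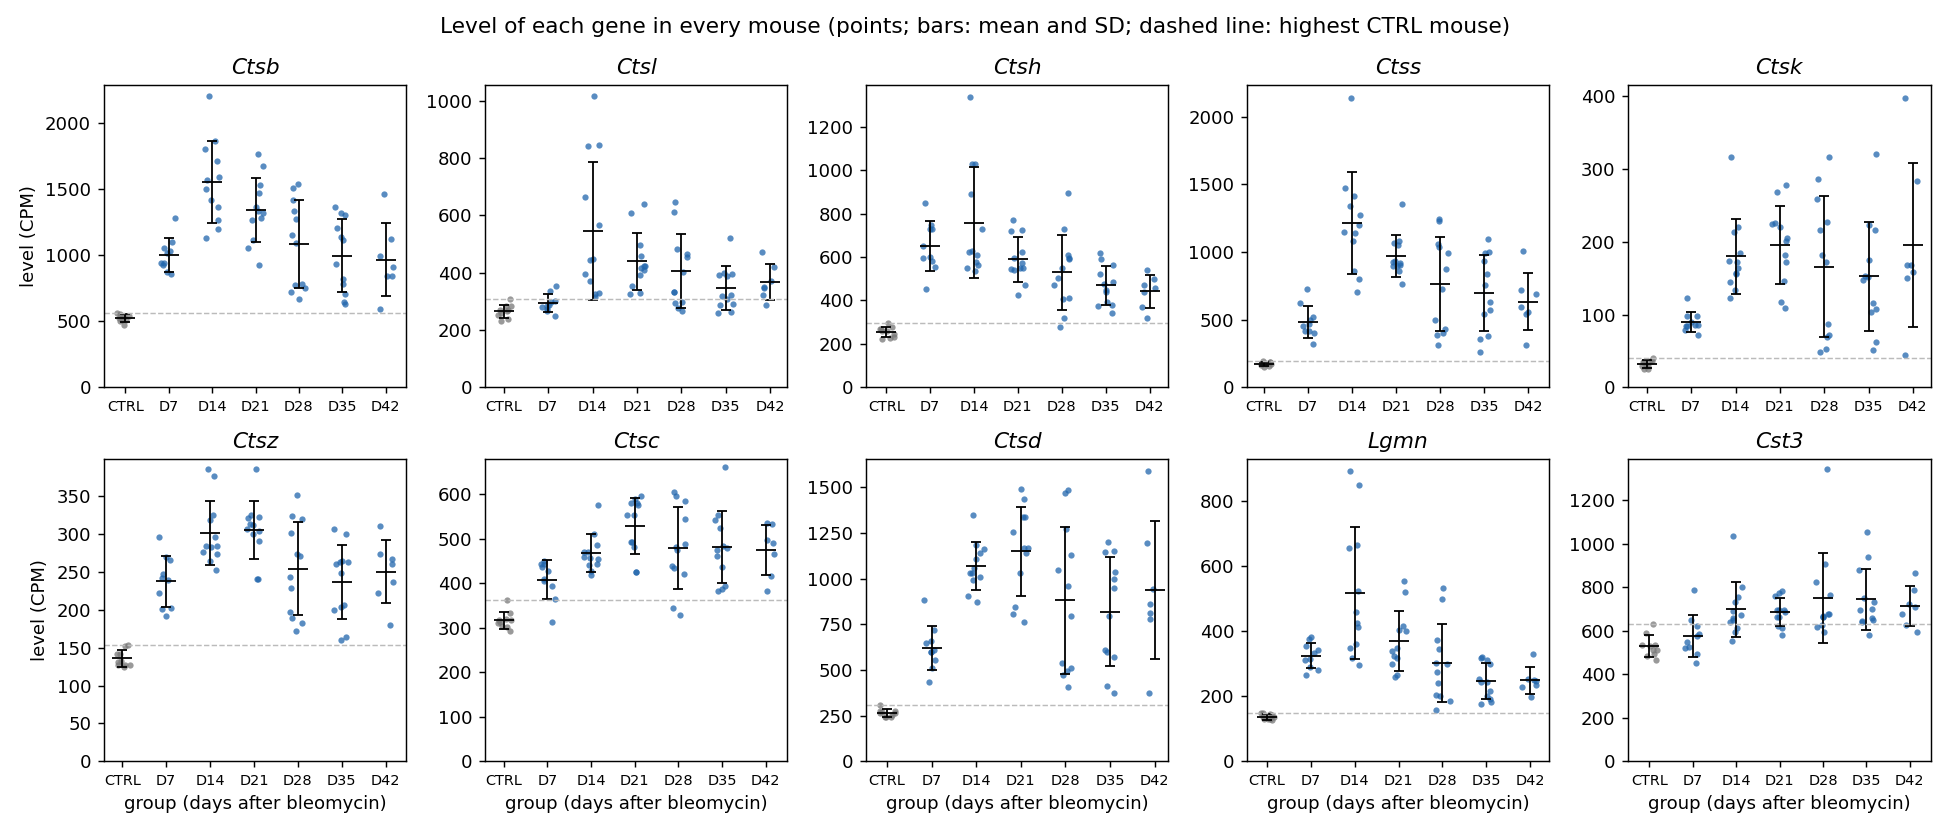
Level of each member in CPM (linear axis from 0) in every mouse (points), by group, with the mean and SD of the group in black and the highest CTRL mouse as a dashed line. Ctsb, Ctsd, Ctsk, Ctss, Ctsz and Lgmn lie above the dashed line in every bleomycin mouse, and Cst3 does so in 2 of 10 mice on D7 and 11 of 12 on D35.

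Cathepsin S (Ctss, ENSMUSG00000038642, chromosome 3, 95526786 to 95556403, plus strand) is an elastin-cutting cysteine protease that keeps its activity at neutral pH and trims the invariant chain of class II molecules in antigen-presenting cells. It showed the largest rise of the set on D14. CTRL mice ranged from 152 to 193 CPM with a median of 177, and D14 mice from 704 to 2136 CPM with a median of 1175. No mouse of any bleomycin day fell below 263 CPM, so the groups did not overlap. The rise on D14 was 6.95-fold (log2 fold change 2.80 ± 0.22 SE, adjusted p = 1.57e-17 by edgeR's quasi-likelihood test), and 1.26% of all genes had a larger log2 fold change. On D7 the log2 fold change was already 1.47 ± 0.21, and it was 2.48 on D21, 2.13 on D28, 2.00 on D35 and 1.85 on D42.

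Cathepsin K (Ctsk, ENSMUSG00000028111, chromosome 3, 95499256 to 95509362, plus strand) is the strongest collagenase among the cathepsins, best known from osteoclasts and also made by lung fibroblasts and macrophages. It is the neighbour of Ctss, ending 17423 bases before it. It was the member with the lowest level and stood as far above CTRL on D42 as on D21. The median was 31.9 CPM in CTRL mice (range 25.2 to 40.9), 85.7 on D7, 168 on D14 (123 to 316), 203 on D21 (109 to 277) and 168 on D42 (44.2 to 397). Even the lowest D42 mouse, mouse 4, lay above all CTRL mice, though by little, and mouse 7 of that day had the highest level of the 75 mice. The log2 fold change was 1.49 ± 0.27 on D7, 2.49 ± 0.27 on D14, 2.61 ± 0.28 on D21, 2.37 on D28, 2.25 on D35 and 2.61 ± 0.30 on D42 (edgeR adjusted p = 4.32e-10 on D42). On D42, 0.536% of all genes had a larger log2 fold change, and leaving out each mouse in turn moved the D42 value between 2.32 and 2.77.

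Cathepsin D (Ctsd, ENSMUSG00000007891, chromosome 7, 142375911 to 142388038, minus strand) is the main aspartic protease of the lysosome and cuts and activates other lysosomal enzymes. Its levels ran from 244 to 307 CPM in CTRL mice (median 266), from 436 to 882 on D7 (median 604), from 873 to 1351 on D14 (median 1045) and from 761 to 1494 on D21 (median 1169). All 12 D14 mice lay above all 10 CTRL mice. The log2 fold change was 1.23 ± 0.20 on D7, 2.01 ± 0.19 on D14, 2.12 ± 0.20 on D21 and 1.82 ± 0.21 on D42. As with Ctsk, the D42 mice ranged from mouse 4 at 373 CPM to mouse 7 at 1589 CPM, and neither mouse decided the call, since the D42 log2 fold change stayed between 1.64 and 1.95 when each of the 75 mice was left out in turn.

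**Figure D2:**
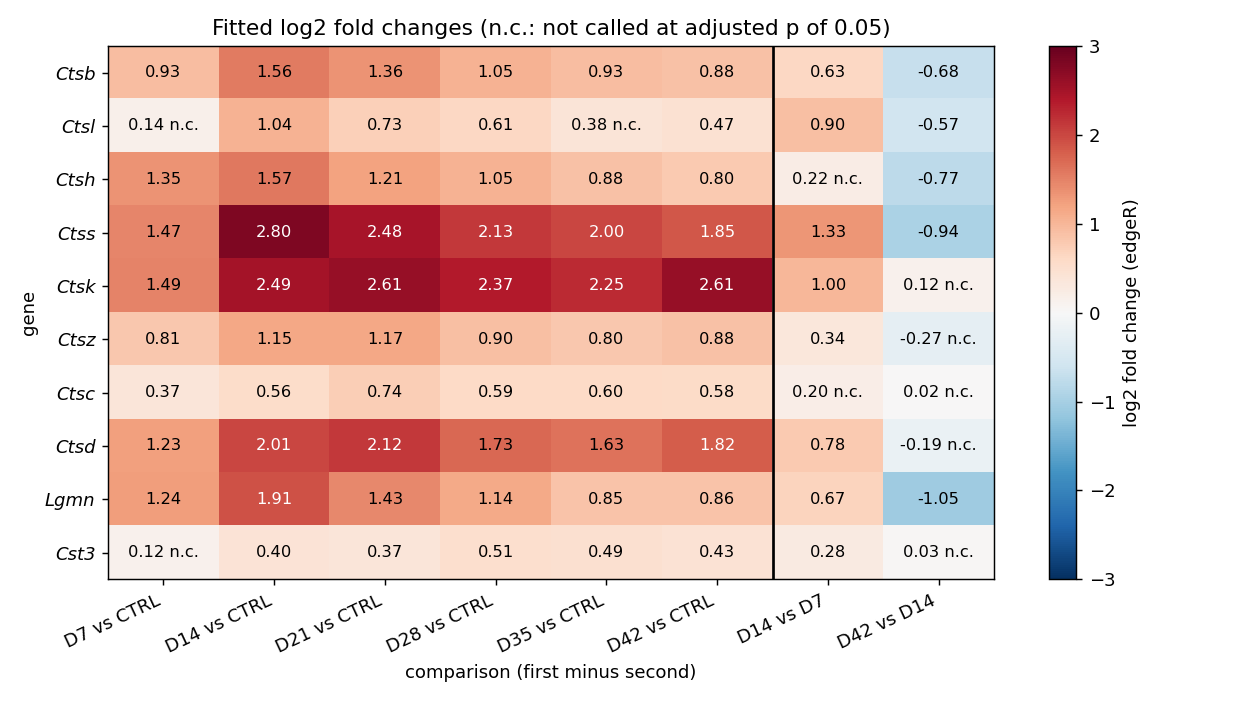
Fitted log2 fold changes (colour and printed value) of the 10 members (rows) in 8 comparisons (columns), the 6 days against CTRL on the left of the line and 2 comparisons between days on the right, with n.c. where a member was not called. Ctss on D14 (2.80) and Ctsk on D21 and D42 (2.61) are the darkest cells, and the last column holds 5 called falls, of Ctsb, Ctsl, Ctsh, Ctss and Lgmn.

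Legumain (Lgmn, ENSMUSG00000021190, chromosome 12, 102394084 to 102439813, minus strand) was already higher on D7, as were most members, and had the largest fitted fall of the set from D14 to D42. CTRL mice lay between 127 and 148 CPM (median 137). The median was 324 on D7 (266 to 383), 442 on D14 (296 to 891), 344 on D21, 288 on D28, 245 on D35 and 247 on D42 (199 to 330). Mouse 3 and mouse 8 of D14, at 891 and 849 CPM, held the highest values. The log2 fold change was 1.24 ± 0.17 on D7, 1.91 ± 0.17 on D14 (3.77-fold, edgeR adjusted p = 2.35e-15), 0.85 ± 0.16 on D35 and 0.86 ± 0.18 on D42. Without D14 mouse 8, the library rich in neutrophil genes, the D14 value was 1.83.

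Cathepsin B (Ctsb, ENSMUSG00000021939, chromosome 14, 63122462 to 63145923, plus strand), a broad cysteine protease that can act as an endopeptidase and as a carboxypeptidase, was the member with the most counts in bleomycin lungs. Its range was 474 to 566 CPM in CTRL mice (median 530), 857 to 1282 on D7 (median 981), 1131 to 2205 on D14 (median 1540) and 592 to 1468 on D42 (median 910). The lowest bleomycin mouse of all, D42 mouse 4, was still above every CTRL mouse. Ctsb had a log2 fold change of 0.93 ± 0.14 on D7, 1.56 ± 0.14 on D14, 1.36 on D21, 1.05 on D28, 0.93 on D35 and 0.88 ± 0.16 on D42. It overlaps Fdft1 on the other strand over 774 bases, whose counts amounted to 3.62% of those of Ctsb, and the strand setting of the counting is not given in the sources used here.

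Cathepsin H (Ctsh, ENSMUSG00000032359, chromosome 9, 90054152 to 90076089, plus strand) is an aminopeptidase that AT2 cells use to process surfactant protein, besides its role in macrophages. It was near its highest level already on D7, since D7 (median 627 CPM, range 451 to 849) and D14 (median 625 CPM, range 537 to 1336) had nearly the same median against 259 CPM in CTRL mice (223 to 294). The log2 fold change was 1.35 ± 0.15 on D7 and 1.57 ± 0.14 on D14, and the step from D7 to D14 was not called (0.22 ± 0.14, edgeR adjusted p = 0.28). The highest mouse, D14 mouse 8, was the library rich in neutrophil genes, and without it the D14 value was 1.47. By D28 the lowest mouse, mouse 11 at 279 CPM, lay within the CTRL range. Of 9 markers of AT2 cells, none was called higher on D14 and 5 were called lower, where 32.4% of all genes were called higher and 29.9% lower. On D7, Cxcl15 (0.62) and Sftpd (0.62) were called higher, Etv5 (-0.45) was called lower and the other AT2 markers were not called. The part of AT2 cells in the level of Ctsh was not tested.

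Cathepsin L (Ctsl, ENSMUSG00000021477, chromosome 13, 64359337 to 64370890, minus strand), a strong cysteine endopeptidase of the lysosome, was late and uneven. CTRL mice ranged from 231 to 308 CPM (median 269) and D7 mice from 249 to 354 CPM (median 286), so that the groups overlapped in 8 of 10 D7 mice, and the log2 fold change on D7 was 0.14 ± 0.16 (edgeR adjusted p = 0.489). On D14 the range was 314 to 1016 CPM (median 446), a 3.23-fold spread between mice, and the log2 fold change was 1.04 ± 0.16. From D28 on, mice overlapped with CTRL again, with 8 of 12 above every CTRL mouse on D28, 7 of 12 on D35 and 6 of 7 on D42. The later calls lay close to the threshold. On D35 the value was 0.38 ± 0.15 with an adjusted p of 0.0532 in edgeR's test, which became 0.0449 without D14 mouse 8 and 0.0493 without D28 mouse 10. On D42 it was 0.47 ± 0.18 with an edgeR adjusted p of 0.0418, and the call was lost in 12 of the 75 fits that left out 1 mouse, with an adjusted p of up to 0.12 without D42 mouse 7.

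Cathepsin Z (Ctsz, ENSMUSG00000016256, chromosome 2, 174427493 to 174439039, minus strand), a carboxypeptidase of monocytes and macrophages, was called higher on all 6 days. Its range was 125 to 154 CPM in CTRL mice (median 132), 192 to 296 on D7 (median 240), 252 to 385 on D14 (median 284), 240 to 386 on D21 (median 309) and 180 to 310 on D42 (median 261). No bleomycin mouse overlapped with a CTRL mouse. Its log2 fold change lay between 0.80 on D35 and 1.17 on D21, with an SE of 0.11 on both days. Ctsz shares 10 bases with Nelfcd on the other strand, whose counts amounted to 16.9% of those of Ctsz.

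Cathepsin C (Ctsc, ENSMUSG00000030560, chromosome 7, 88278085 to 88310888, plus strand), the dipeptidyl peptidase that activates the serine proteases of neutrophils, mast cells and cytotoxic lymphocytes, had the smallest rise among the proteases on D14 and D28. CTRL mice ranged from 293 to 361 CPM (median 315), D14 mice from 419 to 576 (median 458) and D21 mice from 425 to 595 (median 552). D14 and CTRL mice did not overlap, although the log2 fold change was only 0.56 ± 0.08 on D14, and it was 0.37 ± 0.09 on D7, 0.74 ± 0.08 on D21 and 0.58 ± 0.09 on D42. Of 11 granule proteases that it activates, 5 were tested. On D14, Prtn3 (0.95) was called higher while Gzma (-1.54), Cma1 (-1.47) and Gzmb (-0.86) were called lower, at group means of 0.322 to 17.7 CPM. Of all genes tested, 32.4% were called higher and 29.9% lower on D14.

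Cystatin C (Cst3, ENSMUSG00000027447, chromosome 2, 148871722 to 148875692, minus strand) was the only member whose bleomycin mice overlapped with CTRL mice on all 6 days. CTRL mice ranged from 468 to 633 CPM (median 521), D7 mice from 450 to 788 (median 563), D14 mice from 552 to 1038 (median 667) and D28 mice from 593 to 1345 (median 672). Cst3 had a log2 fold change of 0.12 ± 0.10 on D7 (edgeR adjusted p = 0.355), 0.40 ± 0.10 on D14, 0.37 on D21, 0.51 ± 0.10 on D28, 0.49 on D35 and 0.43 ± 0.11 on D42. Single mice lay far above the rest, D14 mouse 2 at 1038 CPM and D28 mouse 5 at 1345 CPM.

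Set against the proteases it inhibits, Cst3 was outweighed more in bleomycin lungs than in CTRL lungs. Per kilobase of exon, the 8 cysteine proteases summed to 1.30 ± 0.09 times Cst3 in CTRL mice (SD, n = 10; range 1.10 to 1.38), to 2.56 ± 0.34 times on D7 (n = 10), to 3.73 ± 0.91 times on D14 (n = 12; 2.40 to 5.33), to 3.20 ± 0.52 times on D21, to 2.46 ± 0.98 times on D28, to 2.20 ± 0.62 times on D35 and to 2.28 ± 0.60 times on D42 (n = 7; 1.33 to 3.03). On D7, D14, D21 and D35 every mouse had a higher ratio than every CTRL mouse. On D28 the lowest mouse, at 1.37, and on D42 the lowest, at 1.33, lay within the CTRL range. The exonic length counts every annotated exon of a gene, and was 1266 bases for Cst3, 1358 for Ctss and 6489 for Ctsl. The size of each ratio therefore depends on the annotation and not only on the reads. The ratio is of RNA and was not tested.

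The makeup of the protease transcripts shifted as well, in shares whose size depends on the same exonic lengths. As a share of the summed CPM per kilobase of the 9 proteases, Ctss made up 19.6% in CTRL mice, 35.4% on D14 and 27.6% on D42. Ctsk went from 3.23% in CTRL mice to 4.77% on D14 and 7.18% on D42, and Ctsd from 17.2% to 18.8% and 23.2%. In return, Ctsc went from 8.34% to 3.38% and 5.17%, Ctsz from 14.4% to 8.61% and 10.8%, and Ctsl from 6.26% to 3.26% and 3.54%. The whole sum was 655 ± 31.3 CPM per kb in CTRL mice (SD, n = 10), 2491 ± 551 on D14 (n = 12) and 1670 ± 508 on D42 (n = 7), so a falling share did not mean a falling level. The ratio of Ctsk to Ctss per kilobase had a median of 0.165 in CTRL mice (0.133 to 0.213), 0.136 on D14 (0.0868 to 0.185) and 0.252 on D42 (0.126 to 0.37), with overlapping ranges.

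**Figure D3:**
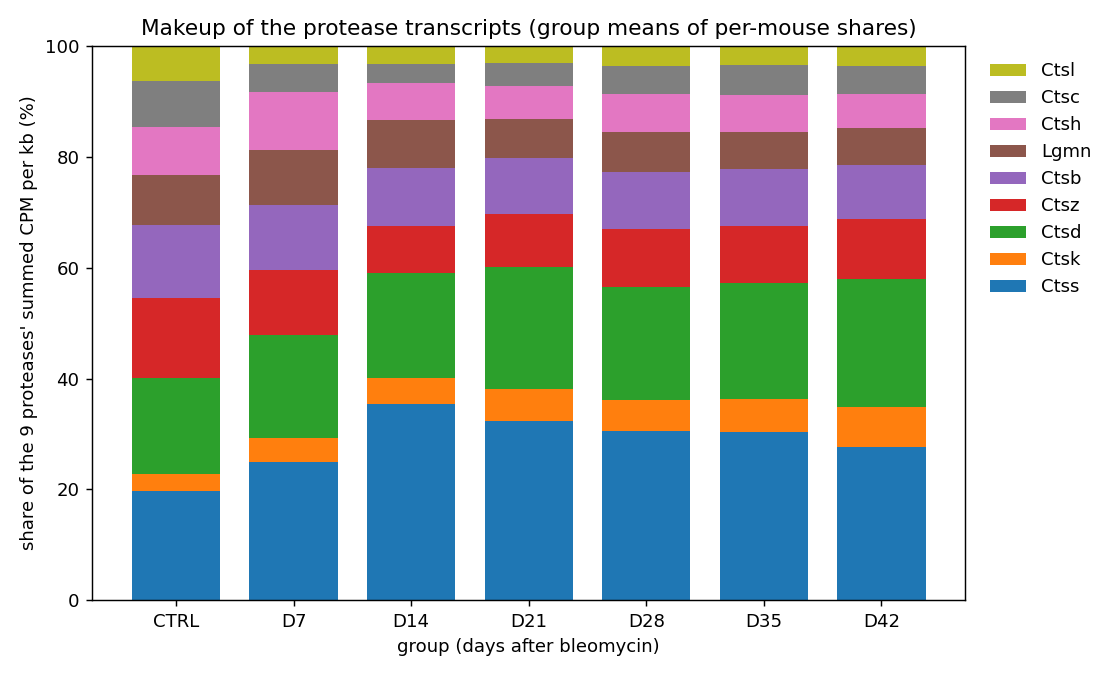
Share of each of the 9 proteases in their summed level per kilobase of exon (%, vertical axis from 0 to 100), as the mean over the mice of each group (horizontal axis). The Ctss block is widest on D14 (35.4%) and the Ctsk block on D42 (7.18%).

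Between D7 and D14, 8 members were called higher and none lower (none lower with DESeq2 or at an unadjusted p under 0.05), where 9.48% of all genes were called higher and 7.55% lower. The steps, all in edgeR's test, ran from 0.28 ± 0.10 for Cst3 (adjusted p = 0.0429) to 1.33 ± 0.20 for Ctss (adjusted p = 5.53e-06). Ctsk rose by 1.00 ± 0.26, Ctsl by 0.90 ± 0.16, Ctsd by 0.78 ± 0.19, Lgmn by 0.67 ± 0.16, Ctsb by 0.63 ± 0.14 and Ctsz by 0.34 ± 0.10. For Ctsc (0.20 ± 0.08, adjusted p = 0.0898) and Ctsh (0.22 ± 0.14) the step was not called. The call of Cst3 was lost without D14 mouse 8 (0.27, adjusted p = 0.0677) and in 20 of the 75 fits that left out 1 mouse, with an adjusted p of up to 0.122 without D14 mouse 2.

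Between D14 and D42, 5 members were called lower and none higher (none higher with DESeq2 or at an unadjusted p under 0.05), where 18.8% of all genes were called lower and 15.2% higher. Lgmn fell by 1.05 ± 0.18 on the log2 scale (adjusted p = 8.43e-06), Ctss by 0.94 ± 0.23, Ctsh by 0.77 ± 0.16, Ctsb by 0.68 ± 0.15 and Ctsl by 0.57 ± 0.17 in edgeR's test. Each of these 5 was still called higher than CTRL on D42. For the other 5 members the difference between D42 and D14 was not called, with Ctsk at 0.12 ± 0.28, Cst3 at 0.03 ± 0.11, Ctsc at 0.02 ± 0.09, Ctsd at -0.19 ± 0.21 and Ctsz at -0.27 ± 0.12 (adjusted p = 0.0613). Whether one member fell more than another was not tested, and the missed calls of Ctsk and Ctsd, whose D42 mice differed by 8.98 times and 4.26 times between the lowest and the highest, do not show that these levels were equal.

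Within a day, the members tended to be high or low in the same mice. On D28, mouse 10 was lowest for 6 members and mouse 11 for 3, and mice 7, 8, 10 and 11 were among the lowest 5 mice for at least 9 of the 10 members. For Ctsd, mice 3, 7, 8, 10 and 11 lay between 405 and 538 CPM and the next mouse at 794 CPM, and for Ctss the same mice lay between 313 and 498 CPM and the next at 727 CPM. Heart muscle genes summed to 2519 CPM in mouse 10, 891 in mouse 11, 699 in mouse 8, 346 in mouse 7 and 73.4 in mouse 3, and to between 47.4 and 495 CPM in the other 7, and their part in these levels was not tested. Without mouse 10 the D28 log2 fold change was 1.81 for Ctsd and 2.21 for Ctss. On D42, mouse 4 was lowest for 9 members and mouse 7 highest for 9. On D35, mouse 4 was lowest for 6 and mouse 9 highest for 7. Ctsc and Cst3 followed this order less. On D14 mouse 5 was highest for Ctsc (576 CPM) and lowest for Lgmn (296 CPM), and over the 75 mice the correlation of deviations from group means was 0.924 between Ctsb and Ctss, 0.888 between Ctsd and Ctsk, 0.285 between Ctsc and Ctsl and 0.158 between Ctsc and Cst3, given as a description of libraries that share depth and tissue makeup.

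**Figure D4:**
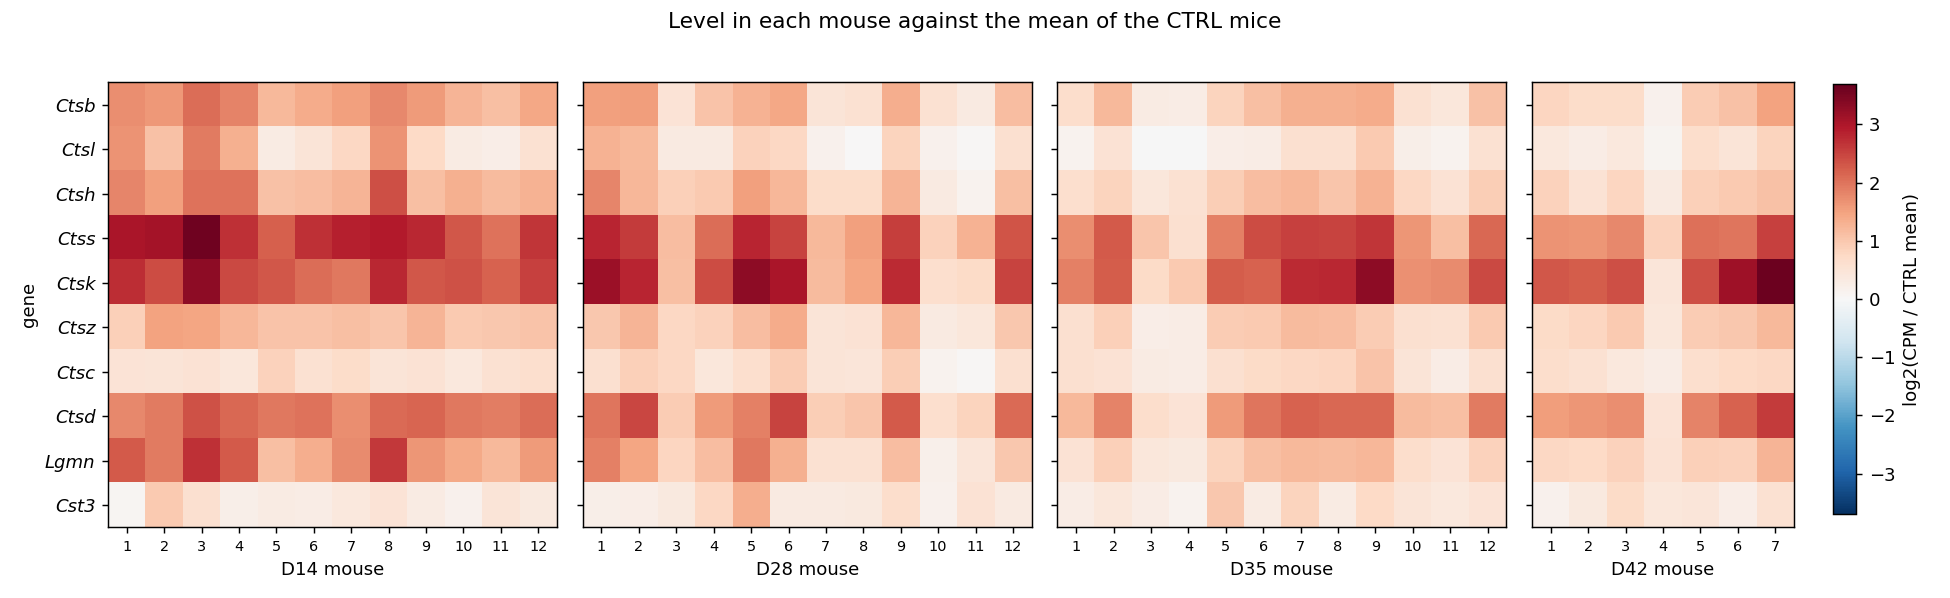
Level of each member (rows) in each mouse (columns, numbered as in the labels) on D14, D28, D35 and D42, as the log2 ratio of its CPM to the mean of the CTRL mice (colour). Columns 3, 7, 8, 10 and 11 of D28 and columns 3 and 4 of D35 are paler than most other columns of their day for most members, and on D42 column 4 is the palest and column 7 the darkest.

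For each member, the 3 genes whose log2 CPM was most like its own over the 75 mice were picked out. Cd68, a lysosomal glycoprotein of macrophages, was among the 3 most like Ctsd (Pearson r = 0.974), Ctss (0.97), Ctsz (0.958) and Ctsk (0.936), and Ctsd itself was the gene most like Ctsk (0.956) and Ctsz (0.959). Nearest to Ctsb stood the Fc receptor gene Fcgr3 (0.975), the lysosomal hydrolase Gusb (0.969) and Wfdc17 (0.968), and nearest to Lgmn Ms4a6d (0.967), Ccr1 (0.962) and Arpc1b (0.961). The genes nearest to Ctsh were S100a14 (0.948), Pla1a (0.947) and Klhdc8a (0.946). Ctsc was closest to Cd200r4 (0.9), Olr1 (0.897) and Clec7a (0.895), Ctsl to Slc6a8 (0.876), Rnf149 (0.867) and Pla2g7 (0.863), and Cst3 only loosely to Itm2c (0.784), Mdk (0.762) and Rgs10 (0.751). The remaining names are Pld3 (0.971) and Psap (0.97) for Ctsd, Arl11 (0.939) for Ctsk, Cd300c2 (0.974) and Cd84 (0.971) for Ctss, and Tyrobp (0.958) for Ctsz. These values describe likeness over mice that differ by day and are given with no test.

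Many but not all markers of macrophages were also higher after bleomycin. Of all genes tested, 32.4% were called higher and 29.9% lower on D14. On D42, 13.7% were called higher than CTRL, and 18.8% were called lower than on D14. Of 12 genes of monocyte-derived macrophages, 10 were called higher on D14 and 12 on D42, and 8 were called lower on D42 than on D14. Their summed level was 1162 to 1429 CPM in CTRL mice, 3225 to 13675 CPM on D14 and 1725 to 5648 CPM on D42. Trem2 (4.28) and Spp1 (5.62), both marking macrophages of injured tissue, had the largest D14 log2 fold changes of that list, and Ccr2 (0.89) and Cx3cr1 (0.91) the smallest that were called. Of 9 genes chosen as general macrophage markers, not all of them present in every macrophage, 8 were called higher on D14. Msr1 (4.36) and Fcgr1 (3.05) were at the top and Csf1r (0.69) and Cd14 (1.02) at the low end. The sum of the 9 was 363 to 426 CPM in CTRL mice and 600 to 1313 CPM on D14. Mertk was not called on D14 (0.08) and was called lower on D7 (-0.24). On D42, Csf1r (0.19), Itgam (0.44), Mertk (-0.12) and Cd163 (-0.84) were not called, and the other genes of this list were called higher. The 10 genes chosen as markers of resident alveolar macrophages were mixed on D14, in numbers close to the shares of all genes. There were 3 higher, among them Marco (1.63) and Chil3 (1.00), and 3 lower, among them Ear1 (-2.46) and Krt79 (-3.38). On D14, mouse 3, highest for 6 members, had 13675 CPM of the monocyte-derived markers, the most of that day, and mouse 11, lowest for 3, had 3225 CPM, the least. No listed marker of macrophages was at 0 in all CTRL mice. The part of these cells in the members' rise was not tested.

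Genes of other cell types were also called, in some lists no more often than all genes tested. Of all genes, 32.4% were called higher and 29.9% lower on D14. On D28, 24.1% were called higher, and on D42, 13.7% were called higher and 11% lower. Of 10 fibroblast genes, 9 were called higher on D14 and 1 on D42, with Col1a1 (2.90) and Cthrc1 (2.50) rising most on D14 and Pdgfra (0.38) and Postn (0.22) least. Their sum was 2805 to 3617 CPM in CTRL mice, 6433 to 17114 on D14 and 3353 to 5106 on D42. Of 9 AT2 genes, 5 were called lower on D14, Sftpa1 (-1.19), Slc34a2 (-0.91), Etv5 (-0.84) and Sftpb (-0.59) among them, and on D42 none was called lower and 3 higher. Of 7 neutrophil genes tested, 3 were called higher on D14, Mmp8 (2.88), Retnlg (1.87) and S100a8 (0.77), and 2 without mouse 8. T cell genes gave 1 lower call of 8 on D14, Cd8a (-0.69). B and plasma cell genes gave 3 higher and 4 lower of 7, from Jchain (2.17) and Sdc1 (0.36) to Cd79a (-1.35) and Ms4a1 (-1.40). Thymus genes gave 3 lower of the 3 tested, Rag1 (-5.01), Dntt (-1.98) and Themis (-0.73), at low and uneven levels. The listed thymus genes summed to 2.62 to 36.1 CPM in CTRL mice (median 4.34) and to 1.18 to 6.82 CPM on D14. The highest CTRL mouse lay far above the median of its group, and its part in these falls was not tested. Heart muscle genes gave 1 higher of 7 on D14, Tnnt2 (1.21), and 6 on D28, or 5 without mouse 10, and skeletal muscle genes gave 4 of 4 tested on D28, or 1 without mouse 10. Their parts in the members' values were not tested either.

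Of the 15 other cathepsins in the table, 5 passed the filter on low counts. Ctsa, the protective carboxypeptidase of the galactosidase complex, was called higher on all 6 days, from 145 CPM in CTRL mice (median; 137 to 156) to 292 CPM on D14 (245 to 362), with a log2 fold change of 1.04 on D14 and 0.62 on D42 (edgeR adjusted p = 2.13e-05 on D42). Ctse, an aspartic protease found outside lysosomes, rose at a low level from a median of 1.04 CPM to 2.67 CPM on D14 (1.48), with no call on D35 and D42. Ctso was called slightly lower on D14 (-0.21), and Ctsf was called lower on D7 (-0.57) but not on D14 (-0.09). Ctsw, of cytotoxic lymphocytes, was not called (-0.24 on D14). The other 10, the neutrophil protease Ctsg and the placental cathepsins such as Ctsj and Ctsm, reached at most 3 counts in any mouse and were not tested.

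Among the other inhibitors of cysteine proteases, 7 of 19 genes in the table were tested. Cstb, the inhibitor inside the cell, was called higher on every day, from a median of 33.9 CPM in CTRL mice (28.4 to 38.7) to 86.4 CPM on D14 (68.1 to 153) and 59.5 CPM on D42 (44.5 to 86.2), with a log2 fold change of 1.52 on D14 and 0.86 on D42. Its D14 rise lay near those of Ctsb and Ctsh and above that of Cst3. Kng2, a kininogen, rose from 0 to 0.668 CPM in CTRL mice to 0.922 to 5.37 CPM on D14 (3.40) and was highest on D35 at a median of 5.98 CPM (5.18). Cst8 was called lower on all 6 days, from a median of 5.82 CPM to 0.798 CPM on D14 (-3.06). Against CTRL, the stefin Stfa2l1 was called higher on D14 only, at 22.1 CPM in mouse 8, the library rich in neutrophil genes, and at most 4.77 CPM in the other 11 mice of that day. Its D14 log2 fold change was 2.49 with mouse 8 and 1.17 without it (edgeR adjusted p = 0.0392), and its calls on D14 against D7 and on D42 against D14 were lost without mouse 8 (adjusted p of 0.246 and 0.0901). Cst7, Ctla2a (-0.20) and Ctla2b (0.02) were not called on D14, although Ctla2a was called lower on D14 without mouse 8 (-0.32, edgeR adjusted p = 0.0176) and with all mice on D21 and D35.

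Of 6 lysosomal peptidases not named cathepsins, 4 were called higher on D14 and none lower, where 32.4% of all genes were called higher and 29.9% lower. These were Prcp (0.68), Scpep1 (0.61), Dpp7 (0.46) and Tpp1 (0.25), all by smaller steps than the 9 proteases except Ctsc. Napsa, the aspartic protease of AT2 cells, was not called on D14 (0.06, edgeR adjusted p = 0.661) and was called higher on each of the other 5 days, at 0.31 on D7 and 0.44 on D42. Cpq was not called in any of the 8 comparisons.

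The rest of the lysosome moved in the same direction for most but not all genes. Of 35 glycan and lipid hydrolases and their activators, 27 were called higher and 4 lower on D14, with Acp5 (2.24) highest and Ids (-0.37) and Lyz1 (-1.74) lowest. Of 20 subunits of the vacuolar proton pump, which acidifies the lysosome, 18 were called higher and 2 lower, from Atp6v0d2 (1.61) and Tcirg1 (0.89), isoforms used by osteoclasts and macrophages, to Atp6v1c2 (-1.74) and Atp6v1b1 (-2.38), isoforms of epithelia. Of 20 lysosomal membrane genes, 11 were called higher and 5 lower, led by Gpnmb (3.87) and Cd68 (2.21) and ended by Lamp3 (-0.77), a gene of AT2 lamellar bodies, and Laptm4b (-0.37). Of all genes tested, 32.4% were called higher and 29.9% lower on D14. Median log2 fold changes were 0.61 for the hydrolases, 0.31 for the pump and 0.27 for the membrane genes. The median was 0.01 for all genes tested, which TMM scaling tends to place near 0. On D42, 26 of the hydrolases, 14 of the pump subunits and 10 of the membrane genes were called higher than CTRL, as were 13.7% of all genes.

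Genes that sort and control lysosomal enzymes had 9 of 19 called higher and 2 lower on D14, where 32.4% of all genes were called higher and 29.9% lower. Grn (0.95), whose product progranulin serves lysosomal function, and Tfec (1.64), a macrophage member of the MiT family, rose most, and Gga3 (-0.22) and Flcn (-0.40) were called lower. Tfeb, named here after its value was seen because the CACGTG core is its target, was not called (30.6 CPM on D14 against 30.4 CPM in CTRL mice, 0.01 ± 0.08 SE). Of 10 class II antigen presentation genes, whose invariant chain Ctss and Lgmn cut, 6 were called higher and 1 lower on D14, with H2-DMb1 (0.67), H2-Ab1 (0.58) and H2-DMa (0.38) higher and H2-Ob (-1.19) lower. The class II sum on D14 ran from 939 CPM in mouse 8 to 6016 CPM, and without mouse 8 the counts were 7 higher and 1 lower. On D42, when Ctss and Lgmn were called lower than on D14, H2-Ab1 stood at 0.77 and H2-DMb1 at 0.88 over CTRL.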

How the data were processed

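RNA from the inferior lung lobe of 75 mice was poly A-enriched by the authors, made into directional single-end libraries and aligned to GRCm38 with STAR 2.7.0f (submitters' processing notes), and the Ensembl 96 annotation was used. The deposited table holds raw read counts per gene, with no normalization. Which program counted the reads, whether it used strand, and how it handled multi-mapping reads are not given in the sources used here. All 55536 identifiers matched the annotation, which supplied symbols and positions. Total counts were 9240291 to 14665247 per library. No pair of libraries within a group was close to sampling noise (lowest chi-square per degree of freedom 3.88 over 375 pairs).

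Counts were tested in R 4.3.3 with edgeR 4.0.16 (filterByExpr, TMM, quasi-likelihood F test, 1 mean per group over all 75 mice, Benjamini-Hochberg adjustment over 16221 genes, threshold 0.05), for each day against CTRL, D14 against D7 and D42 against D14. The procedure was tested on simulated data. Levels per kilobase used the exonic length of the annotation, log2 CPM a prior count of 2. SEs are those of the fitted log2 fold changes and SDs are between mice. Alternatives were DESeq2 1.42.0, other scaling, other filters, a fit of only the groups compared, a replicate block and a minimum log2 fold change of 0.5. After seeing the data, fits without D28 mouse 10, without D14 mouse 8 and without each mouse in turn were added.

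The members and the lists of related genes and cell type markers were chosen with earlier results of these data known. Besides the members and the tested genes of the lists of other cathepsins, inhibitors and lysosomal peptidases, each list gave by name the 2 largest and 2 smallest log2 fold changes among its genes called on D14, and each member the 3 genes with the highest Pearson r over the mice. One gene that this rule names is not reported here.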

Additional observations from a re-analysis of the deposited data

Results flagged for a closer look

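Of the 30 combinations of a member with a group of 7 or 10 mice (CTRL, D7 and D42) that were screened for a single mouse far from the others, 2 stood out, and chance flags about 1 in 20 such groups. Ctsk in D7 mouse 9 was 123.42 CPM, against 98.0 CPM in the next mouse, a gap of 0.494 of the group's range where the critical value is 0.466. Lgmn in D42 mouse 7 was 330.33 CPM, against 252 CPM in the next, a gap of 0.592 of the range where the critical value is 0.568.

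Levels in bleomycin mice differed between days for several members, tested as the difference between the days themselves in edgeR's quasi-likelihood test. CTRL mice carry no day label, so these differences could not be set against control mice of the same days. From D7 to D14 the log2 fold change of Ctss was 1.33, of Ctsk 1.00, of Ctsl 0.90, of Ctsd 0.78, of Lgmn 0.67, of Ctsb 0.63, of Ctsz 0.34 and of Cst3 0.28. From D14 to D42 it was -1.05 for Lgmn, -0.94 for Ctss, -0.77 for Ctsh, -0.68 for Ctsb and -0.57 for Ctsl.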

How the results depend on the processing

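The counts of members called higher or lower in the 8 comparisons stayed within 1.5 times under all 8 alternatives set at the start and without either of the libraries that stood apart. When each mouse of the compared groups was left out in turn, D14 against D7 gave 7 to 8 members higher, D35 gave 9 to 10, D42 gave 9 to 10 and D42 against D14 gave 5 to 6 lower. Of 720 log2 fold changes recomputed, 703 kept their direction and their side of the threshold, 8 lost a call and 8 gained one. The 720 leave out the minimum log2 fold change of 0.5, which removes every call below it. Against CTRL these were Ctsc on D7 (0.37), Ctsl on D42 (0.47) and Cst3 on D14 (0.40), D21 (0.37), D35 (0.49) and D42 (0.43). On D14 against D7 they were Ctsz (0.34) and Cst3 (0.28). The one change of sign was Ctsc on D42 against D14, at -0.00596 with the replicate block and 0.02 without, neither being called. Ctsl on D35 gained its call with library size scaling, upper quartile factors, the replicate block and the fit of only 2 groups (adjusted p of 0.0336, 0.0422, 0.0343 and 0.0025), and on D42 lost it with no filter and with the replicate block (0.0704 and 0.0618). Ctsl on D42 against D14 lost its call in the fit of only the groups compared (0.0654). Apart from that minimum, Cst3 on D14 against D7 lost its call in 5 settings (0.0677 to 0.0999). Same-numbered mice of different groups did not deviate together (median correlation 0.00574 over 204 pairs, range -0.538 to 0.569), so the numbers do not pair the mice, and the replicate block gave 9 members higher on D14 against D7, 10 on D35 and 9 on D42, and 6 lower on D42 against D14, gaining Ctsc in the first (0.0391) and Ctsz in the last (0.0373). In these cases the cause was not tested. Depth did not limit the members, whose lowest count in any mouse was 279. Of the other cathepsins and cystatins, 10 of 15 and 12 of 19 did not pass the filter on low counts. Among the latter, Stfa1 and Stfa2 reached 51 and 45 counts on D14 but at most 2 and 0 in CTRL mice.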
